A study of Rattus norvegicus with 18 samples.

Results

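Imprinted genes that control fetal growth were followed through the last days of gestation and birth in rat lung. The 9 genes listed were the growth factor gene Igf2, its neighbour H19, the receptor gene Igf2r, the signalling adaptor Grb10, the cell cycle inhibitor Cdkn1c, the transcription factor genes Plagl1 and Peg3, and the developmental genes Mest and Dlk1. They were chosen with earlier results of these data known. All were taken by name, as every probe set annotated to any of them, which gave 14 of the 31099 probe sets on the array. No probe set was named for Peg3 in the annotation used, so values are given for 8 genes, of 11590 genes measured in all. Of the 14 probe sets, 11 passed a filter on low signal (above 40.8 in at least 3 arrays), as did 21675 of all probe sets. The other 3 were annotated to Igf2 (1371206_a_at, 1388252_at and 1398322_at) and read between 0.9 and 16.8 in all 18 arrays, so that Igf2 rests on 1367571_a_at alone.

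The lungs came from Wistar rats at fetal day 19 (FD19, the canalicular stage), at fetal day 22 (FD22, the saccular stage before birth) and at postnatal day 1 (P1, taken 5 h after birth, saccular). Fetuses were delivered by Cesarean section and newborns were born vaginally, so that birth, age and mode of delivery cannot be told apart between FD22 and P1. The labels name no transgene and no treatment. Each stage had 3 lysates from separate litters, and how many lungs went into a lysate is not given in the sources used here. Each lysate gave total RNA and, from a sucrose gradient, RNA of large polysomes carrying more than 7 ribosomes per mRNA. The 18 arrays were Affymetrix Rat Genome 230 2.0 arrays, and values are linear signals scaled by the submitters to a common trimmed mean.

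An imprinted gene is read mainly from the copy inherited from a given parent. Igf2, Mest, Dlk1, Peg3 and Plagl1 are known as paternally expressed genes, while H19, Cdkn1c, Igf2r and, in most tissues, Grb10 are maternally expressed. IGF2 drives fetal growth, IGF2R binds IGF2 and carries it to the lysosome, GRB10 dampens signalling from the insulin and IGF1 receptors, and CDKN1C (p57) halts the cell cycle. Many genes of the group are known to be high in the fetus and low in the adult. The arrays measured the sum of both parental copies.

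Igf2 and H19 are neighbours with 0 genes between them in the RefSeq gene table of the assembly GRCr8, and Cdkn1c lies on the same chromosome with 12 genes between it and Igf2. Promoter windows, 250 bases before to 50 after a start listed for the gene, were in the RefSeq table of GRCr8 for 7 of the 9 genes. A listed start need not be the outer end of the gene. The windows of Igf2, Mest, Dlk1 and Grb10 are printed with each CG dinucleotide in capitals, since CpG methylation is the mark by which imprinting is set. Igf2 had a pair of windows, of which the upstream one is shown. The pair lies inside the listed span of the gene (chr1:207243873-207261263). The Igf2 window (chr1:207253931-207254230, minus strand) held 19 CpG, the Mest window (chr4:60321564-60321863, plus strand) 18, the Dlk1 window (chr6:134192347-134192646, plus strand) 45 and the Grb10 window (chr14:90816338-90816637, minus strand) 44.
Igf2: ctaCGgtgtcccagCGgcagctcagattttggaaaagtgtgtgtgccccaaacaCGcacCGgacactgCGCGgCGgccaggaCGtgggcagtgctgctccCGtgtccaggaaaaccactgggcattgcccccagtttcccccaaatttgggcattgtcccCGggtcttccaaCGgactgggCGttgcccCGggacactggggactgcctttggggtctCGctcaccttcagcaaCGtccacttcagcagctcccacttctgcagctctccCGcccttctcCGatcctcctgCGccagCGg
Mest: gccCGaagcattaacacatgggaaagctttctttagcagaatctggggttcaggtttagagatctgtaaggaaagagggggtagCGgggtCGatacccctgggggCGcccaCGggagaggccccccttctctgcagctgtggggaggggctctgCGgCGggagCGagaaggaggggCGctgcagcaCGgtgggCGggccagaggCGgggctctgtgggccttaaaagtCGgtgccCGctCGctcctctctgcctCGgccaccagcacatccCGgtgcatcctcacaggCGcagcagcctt
Dlk1: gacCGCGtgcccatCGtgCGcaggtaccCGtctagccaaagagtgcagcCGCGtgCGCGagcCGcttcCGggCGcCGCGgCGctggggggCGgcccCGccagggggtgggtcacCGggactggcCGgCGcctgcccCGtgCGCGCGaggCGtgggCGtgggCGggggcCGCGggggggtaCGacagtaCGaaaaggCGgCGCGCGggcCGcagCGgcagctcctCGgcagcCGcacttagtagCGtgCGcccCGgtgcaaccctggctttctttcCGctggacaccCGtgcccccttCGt
Grb10: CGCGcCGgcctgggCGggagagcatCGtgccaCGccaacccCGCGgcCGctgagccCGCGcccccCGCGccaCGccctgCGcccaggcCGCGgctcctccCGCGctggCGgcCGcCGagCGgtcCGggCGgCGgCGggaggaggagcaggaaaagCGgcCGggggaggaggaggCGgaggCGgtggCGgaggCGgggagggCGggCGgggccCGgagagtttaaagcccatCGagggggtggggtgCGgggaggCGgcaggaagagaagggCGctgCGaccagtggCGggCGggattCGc

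The median over 33469 promoter windows of the same length was 7 CpG, and 98.3% of them held fewer than Dlk1 and 98.1% fewer than Grb10. For the Igf2 window shown this share was 74.3% and for Mest 72.5%, and a link of CpG count with the changes was not tested. The remaining windows held 30 CpG for Igf2r, 29 for Plagl1, 16 for Peg3 and 7 for the downstream start of Igf2. The motif GGGGCCCC, reported for PLAGL1, was searched for and reads the same on both strands. It occurred in the Peg3 window only and in 0.86% of all windows, and methylation and factor binding were not measured here.

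H19 is a long non-coding RNA and the host of a microRNA hairpin, miR-675. Its mature forms are printed 5′ to 3′ with the seed (bases 2 to 8) in capitals because H19 is read here only as its long transcript, and no probe set was assigned to the microRNA.
rno-miR-675-5p: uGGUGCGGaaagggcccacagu
rno-miR-675-3p: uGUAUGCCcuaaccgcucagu

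The arrays read as lung, with all 8 lung epithelium markers (Sftpc, Sftpb, Nkx2-1 and others) above the filter. Their summed signal was 13880.2 to 15380.5 in FD19 total RNA and 25088 to 27488.5 in P1 total RNA. Of these 8 genes, 4 were called higher and 1 lower between these groups (limma, adjusted p under 0.05). These are 50% and 12.5%, against 12.4% and 13.7% of all probe sets. Nkx2-1 was lower at P1, at 1188 to 1254 against 1534 to 1560 at FD19. A pair of lysates stood furthest apart. In the library labelled FD22 replicate 2, 9 liver markers summed to 10803 in total and 10525.5 in polysomal RNA, with albumin (Alb) at 5662 and 4891.5, against 120.2 to 379 for the sum in the other 16 arrays. FD19 replicate 1 had the highest sums of 7 skeletal muscle markers (1875 total, 2210.0 polysomal, against 288 to 388 in the other FD19 arrays) and of 8 cartilage markers (2095 and 1281, against 520.3 to 1015). Skeletal muscle sums were also high in P1 replicate 1 (845.1 total, 1033.1 polysomal, against 238.4 to 338.2 in the other P1 arrays). In FD22 replicate 3 they were 768.6 and 772.7. Heart marker sums varied within stages, from 983 to 3229.7 in FD22 total and from 870.0 to 5450.2 in FD22 polysomal RNA, highest in FD22 replicate 3 in both, beside 3330.1 and 4144 in FD19 replicate 1. For the members, stage differences that rest on FD19 replicate 1 or FD22 replicate 2 are given also without that lysate. For the other gene lists only counts of calls are given without it. The summed signal of 19 measured cell cycle genes of 20 listed was 11043.5 to 11234 in FD19 total RNA, 3827 to 5596 at FD22 and 3142 to 3437 at P1. Sums of 9 mesenchyme markers were 13138 to 13821 in FD19 and 11626 to 12245 in P1 total RNA, and sums of 5 erythroid markers 10332 to 11269 and 8817.5 to 11964. Of the 5 erythroid genes, 2 were called lower and 1 higher between these groups (40% and 20%, against 13.7% and 12.4%). In polysomal RNA before birth 4 were called lower and 0 higher (80% and 0%, against 7.7% and 8.22%). Endothelial marker sums in total RNA were 2319 to 2467 at FD19, 4061 to 4614 at FD22 and 3662 to 4209 at P1, and leukocyte marker sums were 1969 to 2220.3, 6322.5 to 9622 and 6691 to 8024. In bulk tissue, fewer cells of a type and less RNA per cell cannot be told apart, and the part of cell composition in the changes below was not tested.

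**Figure D1:**
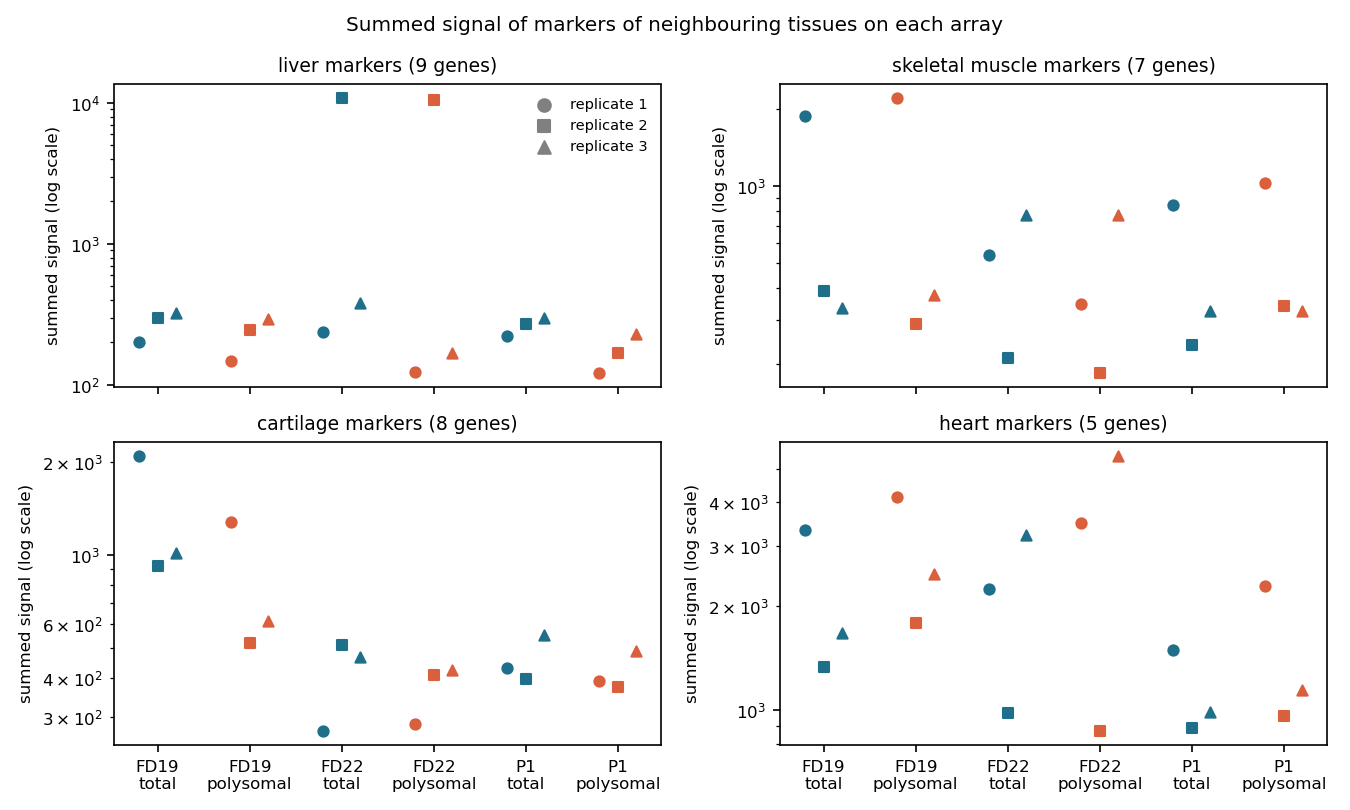
Summed signal of markers of liver, skeletal muscle, cartilage and heart (log axes) on each of the 18 arrays, with groups along the x axis, blue for total and orange for polysomal RNA, and a symbol for each replicate number. FD22 replicate 2 stands far above all other arrays for liver (10803 and 10526) in both fractions, and FD19 replicate 1 is the highest FD19 array of its fraction in the other panels, where FD22 replicate 3 is the highest polysomal array for heart.

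In total RNA most of the group was lower in newborn than in FD19 lung, with Grb10, Igf2, H19 and Cdkn1c already lower at FD22, Mest lower at P1, and Dlk1 higher from FD22 on. Between FD19 and FD22, 5 of 11 probe sets fell and 1 rose (limma, Benjamini-Hochberg adjusted p under 0.05), where 7.82% of all probe sets fell and 8.42% rose. Those that fell were Igf2, H19, Cdkn1c and 2 of 3 for Grb10, and Dlk1 rose. Between FD22 and P1 only Mest fell, 1 of 11, against 1.76% lower and 2.21% higher overall. Between FD19 and P1, 9 of 11 fell and Dlk1 rose, against 13.7% and 12.4%. In this last comparison all 11 probe sets had groups that did not overlap, 10 lower and 1 higher, against 23.2% and 19.5% of all probe sets. The median log2 difference of the 11 was -0.48, -0.19 and -0.83 in these comparisons, and that of all probe sets 0.01, -0.05 and -0.03. The 11 probe sets stand for 8 genes, with 3 for Grb10 and 2 for Igf2r. Taken as 8 genes, each by its brightest probe set, 4 fell and 1 rose before birth. Across birth 1 fell and 0 rose, and from FD19 to P1 6 fell and 1 rose. The comparisons share arrays, so their counts are not independent. Because the members were chosen with earlier results of these data known, their shares describe this list and are no test of it.

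In polysomal RNA Igf2, H19 and Grb10 were again lower from FD22 on, and Mest at P1. From FD19 to FD22, 4 of 11 fell (Igf2, H19 and 2 for Grb10) and Dlk1 rose, where 7.7% of all probe sets fell and 8.22% rose. From FD22 to P1, Mest and Grb10 (1371517_at) fell, 2 of 11, against 4.55% lower and 3.79% higher. From FD19 to P1, 7 of 11 fell and Dlk1 rose, against 15.8% and 13.1%. The members' medians were -0.33, -0.29 and -0.89. Taken as 8 genes, 3 fell and 1 rose before birth, 2 and 0 across birth, and 5 and 1 from FD19 to P1.

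**Figure D2:**
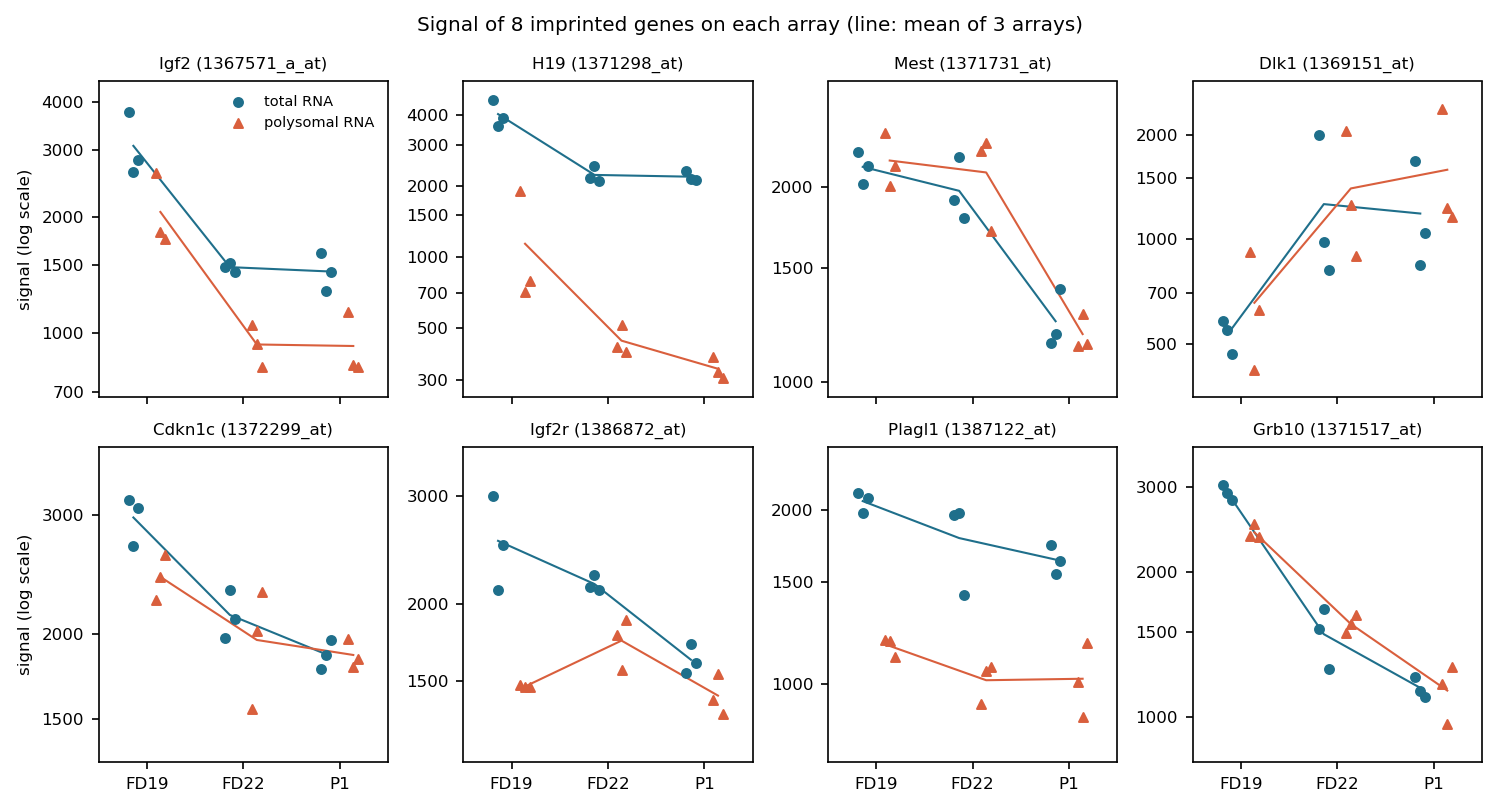
Signal (log axis) of the brightest probe set of each of 8 imprinted genes by stage, with a circle for each total RNA array, a triangle for each polysomal RNA array and lines through the means of 3 arrays. Igf2, H19, Cdkn1c and Grb10 are lower at FD22 than at FD19 in total RNA, Mest is lower at P1, and Dlk1 is higher at FD22 and P1.

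Igf2 (1367571_a_at), the fetal growth factor, read 3776, 2635 and 2819.9 in FD19 total RNA, 1488, 1522 and 1441 at FD22, and 1612, 1287 and 1440.5 at P1. Its polysomal signals were 2614, 1835 and 1753.5, then 1046, 933.5 and 816, then 1133, 822 and 815. All FD19 arrays lay above all later arrays of their fraction, and the FD22 and P1 arrays overlapped. Polysomal Igf2 fell by 1.13 ± 0.17 (log2, SE) before birth (adjusted p = 0.00015), beside a fall by 1.03 ± 0.17 in total RNA. Across birth the difference was -0.04 ± 0.17 in total RNA (95% interval -0.39 to 0.31) and -0.02 ± 0.17 in polysomal RNA (-0.38 to 0.33). FD19 replicate 1 was the highest FD19 array in both fractions, and without it the falls before birth were by 0.88 (adjusted p = 0.0011) and by 0.95 (0.00086). Without FD22 replicate 2 they were by 1.05 and by 1.13.

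H19, the maternally expressed RNA beside Igf2, read 4629.5, 3599 and 3889.5 in FD19 total RNA, 2156.5, 2437 and 2092 at FD22, and 2307.5, 2133 and 2129.7 at P1. In polysomal RNA it read 1911, 707.5 and 792, then 413, 514 and 395, then 376, 324 and 305. Both fractions were higher at FD19 than later with no overlap, and in polysomal RNA every P1 array lay below every FD22 array. H19 fell before birth by 0.85 ± 0.24 in total RNA (adjusted p = 0.021) and by 1.21 ± 0.24 in polysomal RNA (0.0017). Across birth it differed by -0.02 ± 0.24 and -0.39 ± 0.24 (adjusted p = 0.98 and 0.39). The polysomal H19 signal of FD19 replicate 1 was above that of the other FD19 lysates by more than their own level, and without that lysate the falls were by 0.75 (0.0019) and by 0.77 (0.0020). The total RNA call before birth ended under quantile normalization (0.146) and without FD22 replicate 1 (0.0578) or 3 (0.0769).

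The gene of the receptor that clears IGF2, Igf2r, had 2 probe sets. Igf2r 1386872_at read 2999.7, 2108 and 2492 in FD19 total RNA, 2131, 2228 and 2108 at FD22, and 1546, 1723 and 1603 at P1. In polysomal RNA it read 1477, 1467 and 1465, then 1783, 1566 and 1885, then 1397, 1537 and 1328. In total RNA FD19 and FD22 overlapped and P1 lay below both, whereas in polysomal RNA the FD22 arrays were the highest and FD19 and P1 overlapped. From FD19 to P1 total Igf2r fell by 0.63 ± 0.12 (adjusted p = 0.00049) and the polysomal difference was -0.05 ± 0.12 (0.80). The second probe set, Igf2r 1367636_at, fell by 0.83 ± 0.18 in total RNA (0.0021) with a polysomal difference of -0.30 ± 0.18 (0.24). No single stage step was called for Igf2r, with total RNA steps across birth of -0.41 ± 0.12 (adjusted p = 0.057) and -0.60 ± 0.18 (0.077). Under quantile normalization both passed (0.019 and 0.042), as did the polysomal steps of 1386872_at, higher by 0.36 before birth (0.021) and lower by a log2 difference of -0.50 across it (0.0056). Without FD19 replicate 1, the highest array of both probe sets in FD19 total RNA, the falls from FD19 to P1 were by 0.50 (0.0059) and by 0.72 (0.0083). Without FD22 replicate 2 the total RNA steps across birth were -0.38 (0.16) and -0.61 (0.13).

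Grb10, the adaptor that restrains insulin and IGF receptor signalling, had the largest fall of the members in total RNA from FD19 to P1 (by 1.34 ± 0.12, adjusted p = 1.3e-07). Grb10 1371517_at read 3024, 2914 and 2818 in FD19 total RNA, 1527, 1672 and 1261 at FD22, and 1212, 1137 and 1105 at P1. Its polysomal signals were 2369, 2514 and 2361, then 1494, 1558 and 1629.9, then 1171, 969 and 1270.5. The 3 stages were separate in both fractions, each lower than the one before. Before birth it fell by 0.98 ± 0.12 in total RNA (adjusted p = 1.2e-05) and by 0.63 ± 0.12 in polysomal RNA (0.00088). Across birth the polysomal signal fell by 0.46 ± 0.12 (0.017) and the total RNA difference was -0.36 ± 0.12 (0.094). Without FD19 replicate 1 the falls before birth were by 0.95 and by 0.64, and without FD22 replicate 2 by 1.07 and by 0.63, all called. The polysomal call across birth ended under median centring (0.082), with only the groups compared (0.13), with only the arrays numbered 2 and 3 (0.085) and without P1 replicate 2 (0.10).

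The other Grb10 probe sets moved the same way. Grb10 1397211_at read 722 to 785 in FD19 total RNA, 226 to 476 at FD22 and 257 to 366 at P1, and fell by 1.25 ± 0.28 from FD19 to P1 (adjusted p = 0.0022). Its lowest FD22 arrays in both fractions (226 and 126) were those of the lysate with liver markers, and without it the fall before birth was by 0.77 (0.013) in place of 1.08 in total RNA. The total RNA call before birth ended without FD19 replicate 3 (0.052), and the polysomal one (-1.03 ± 0.28, 0.015) without any single FD19 lysate (0.058, 0.053 and 0.052). Grb10 1394610_at was dim, at 56.3 to 314, and fell by 1.21 ± 0.35 from FD19 to P1 (0.015), a call that ended without FD19 replicate 3 (0.075) or P1 replicate 2 (0.070).

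Cdkn1c, the imprinted inhibitor of cyclin-dependent kinases, read 3157, 2704 and 3074 in FD19 total RNA, 1975, 2330.0 and 2105 at FD22, and 1774.5, 1865 and 1964 at P1. In polysomal RNA it read 2247, 2432 and 2618.5, then 1551, 2024 and 2311, then 1967, 1788 and 1837.5. The total RNA groups did not overlap, while the polysomal FD22 arrays overlapped with those of both other stages. From FD19 to P1 Cdkn1c fell by 0.67 ± 0.13 in total RNA (adjusted p = 0.00051) and by 0.38 ± 0.13 in polysomal RNA (0.027), the latter called in 9 of 16 alternatives. Before birth total Cdkn1c fell by 0.48 ± 0.13 (0.012), a call that ended under quantile normalization (0.14), with only the arrays numbered 2 and 3 (0.060) and without FD19 replicate 1 (0.061) or 3 (0.058). Without FD22 replicate 2 it was -0.54 (0.016).

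Plagl1, the zinc finger factor also called Zac1, read 2145, 1977 and 2098 in FD19 total RNA, 1958.5, 1981 and 1429 at FD22, and 1739, 1553.5 and 1634 at P1. Its polysomal signals were 1193, 1186 and 1113, then 923, 1051.5 and 1071.5, then 1009, 878 and 1177. No stage comparison of Plagl1 was called. The difference from FD19 to P1 was -0.34 ± 0.13 in total RNA (adjusted p = 0.064, 95% interval -0.61 to -0.06) and -0.20 ± 0.13 in polysomal RNA (0.29). They were, without FD19 replicate 1, -0.31 (0.17) and -0.18 (0.45), and without FD22 replicate 2 the total RNA difference before birth was -0.31 (0.19).

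Mest, a paternally expressed gene of an enzyme of the alpha/beta hydrolase fold that is high in fetal mesoderm, read 2264, 2020.5 and 2156 in FD19 total RNA, 1905, 2221 and 1788.5 at FD22, and 1146, 1184 and 1388 at P1. Its polysomal signals were 2424, 2007 and 2156, then 2274, 2334 and 1706, then 1136, 1272 and 1144.5. FD19 and FD22 overlapped in both fractions and all P1 arrays lay below them. Mest fell across birth by 0.67 ± 0.13 in total RNA (adjusted p = 0.0055) and by 0.81 ± 0.13 in polysomal RNA (0.00077), and before birth it differed by -0.13 ± 0.13 and -0.07 ± 0.13 (0.57 and 0.78). Without FD22 replicate 2 the falls across birth were by 0.58 (0.038) and by 0.73 (0.0063). The total RNA call ended with only the arrays numbered 2 and 3 (0.071).

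Dlk1, which encodes a transmembrane relative of the Notch ligands, was the exception in direction. It read 581, 546 and 466 in FD19 total RNA, 1994, 979.7 and 816 at FD22, and 1677, 843 and 1040.2 at P1. In polysomal RNA it read 919.5, 421 and 627, then 2055, 1257 and 893, then 2376, 1228 and 1157. The array numbered 1 was the highest in 6 of 6 groups. That array was also the highest in 5 of 6 for Igf2 and Grb10 1397211_at, and in 4 of 6 for H19 and Igf2r 1367636_at. For the remaining member probe sets this held in 0 to 3 of 6. Total Dlk1 rose by 1.14 ± 0.36 before birth (adjusted p = 0.038) and was higher by 1.10 ± 0.36 at P1 than at FD19 (0.030). Polysomal Dlk1 was higher by 1.08 ± 0.36 at FD22 (0.0497) and by 1.26 ± 0.36 at P1 (0.013). The call held in 8 of 16 alternatives for total RNA before birth, in 11 of 16 for total RNA from FD19 to P1, and in 7 and 14 of 16 for polysomal RNA. The total RNA call before birth ended without FD19 replicate 1 (adjusted p = 0.063), 2 (0.073) or 3 (0.14), and without FD22 replicate 1 (0.14) or 2 (0.052). It also ended with no filter (0.059), under median centring (0.072) and with no variance trend (0.064). The total RNA call from FD19 to P1 ended without FD19 replicate 2 (0.057) or 3 (0.11) and without P1 replicate 1 (0.12) or 3 (0.056). With no variance trend it ended as well (0.053). The polysomal call from FD19 to P1 ended without FD19 replicate 2 (0.094) or P1 replicate 1 (0.069).

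**Figure D3:**
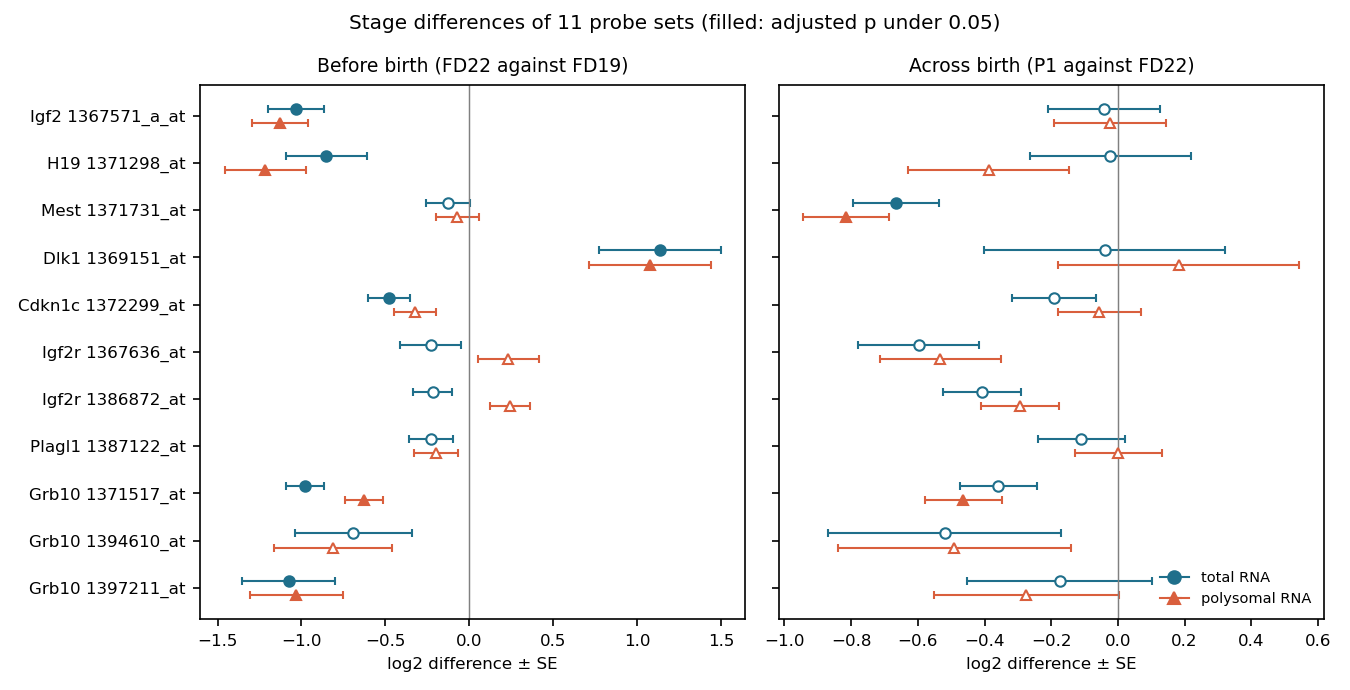
Log2 differences (points, with bars of 1 SE from limma) of 11 probe sets before birth (FD22 against FD19, left) and across birth (P1 against FD22, right) in total RNA (circles) and polysomal RNA (triangles), filled where the adjusted p was under 0.05. The left panel holds the falls of Igf2, H19, Grb10 and, in total RNA, Cdkn1c, and the rise of Dlk1. In the right panel are the falls of Mest and, in polysomal RNA, Grb10 1371517_at.

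A call in a single step does not show that the steps differ, so the step before birth minus the step across birth was tested in the same model, a test added after the data were seen. In total RNA 0 of 11 probe sets passed, against 3.86% of all probe sets, with 3 members at an unadjusted p under 0.05 (Igf2, Mest and Grb10 1371517_at), as had 16.5% of all probe sets. Total Igf2 came nearest, at -0.99 ± 0.29 (adjusted p = 0.066). In polysomal RNA 1 of 11 passed, against 4.78%, and this was Igf2 at -1.11 ± 0.29 (0.034). At an unadjusted p under 0.05 there were 4 (Igf2, Mest and both for Igf2r), against 17.8%. The Igf2 call ended in 8 of 18 alternatives, with an adjusted p of up to 0.17. The opposite difference of polysomal Mest, 0.74 ± 0.22, was not called (0.062).

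The polysomal over total ratio compares the signal in large polysomes with that in all RNA of the same lysate. Because all arrays were scaled to the same mean, it is relative to the other RNAs of the array and does not give the share of molecules on polysomes. At FD19 the ratio was called below 1 (limma, adjusted p under 0.05) for 5 of 11 probe sets (Igf2, H19, both for Igf2r, and Plagl1). It was called above 1 for 0, where 10.9% of all probe sets were called lower and 9.97% higher. At FD22 it was called lower for 3 of 11 (Igf2, H19, Plagl1), against 8.6% lower and 6.76% higher. At P1 it was called lower for 4 of 11 (the same 3 and Grb10 1397211_at), against 10.4% and 8.12%. Taken as 8 genes, each by its brightest probe set, 4, 3 and 3 were called lower at the 3 stages and 0 higher. Called or not, the mean log2 ratio was below 0 for 8 of 11 at FD19, 7 at FD22 and 9 at P1. The median log2 ratio of all probe sets was below 0 as well, at -0.07, -0.08 and -0.09. That of the 11 was -0.58, -0.15 and -0.08, so at P1 it was no lower than that of all probe sets. Centring arrays on their medians moved the median log2 ratio of all probe sets by 0.17, 0.23 and 0.20 at the 3 stages, and the share of calls that were higher from 47.8% to 73.4%, from 44% to 79.8% and from 44% to 75.1%.

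H19 had the lowest ratio of the group. Polysomal over total signal, each with 5.5 added, was 0.414, 0.198 and 0.205 in the FD19 lysates, 0.194, 0.213 and 0.191 at FD22, and 0.165, 0.154 and 0.145 at P1. The log2 ratio was -1.97 ± 0.24 at FD19 (adjusted p = 2.4e-05), -2.33 ± 0.24 at FD22 (2.7e-06) and -2.69 ± 0.24 at P1 (8.7e-07), and no alternative ended these calls. FD19 replicate 1 stood above the other lysates, and without it the FD19 value was -2.31 (2.7e-07).

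Plagl1 and Igf2 were lower on polysomes at every stage. The Plagl1 ratios were 0.557, 0.601 and 0.531 at FD19, 0.473, 0.532 and 0.751 at FD22, and 0.581, 0.567 and 0.721 at P1. Its log2 ratios of -0.83, -0.80 and -0.69 (SE 0.13 each) were called under every alternative run, with -0.82 at FD19 without FD19 replicate 1 and -0.75 at FD22 without FD22 replicate 2. The Igf2 ratios were 0.693, 0.697 and 0.623, then 0.704, 0.615 and 0.568, then 0.704, 0.640 and 0.567. Its log2 ratios of -0.58, -0.67 and -0.66 (SE 0.17 each, adjusted p = 0.021, 0.011 and 0.011) fell out of the calls under median centring, where they were -0.41, -0.44 and -0.46 (0.15, 0.12 and 0.11). Each Igf2 call also ended without replicate 2 or 3 of its stage, with adjusted p from 0.057 to 0.13, and at FD19 under quantile normalization (0.33). The FD19 value was -0.60 (0.026) without FD19 replicate 1, and without FD22 replicate 2 the FD22 value was -0.66 (0.067).

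For Igf2r the low ratio was called at FD19 only. Igf2r 1386872_at gave 0.493, 0.696 and 0.589 at FD19, 0.837, 0.704 and 0.894 at FD22, and 0.904, 0.892 and 0.829 at P1. All FD19 lysates lay below all lysates of the later stages. Igf2r 1367636_at gave 0.732, 0.554 and 0.697, then 0.959, 0.734 and 1.044, then 1.148, 0.896 and 0.818. The FD19 log2 ratios were -0.77 ± 0.12 (adjusted p = 0.00018) and -0.61 ± 0.18 (0.024), the latter not called under median centring (0.13) or without FD19 replicate 2 (0.19) or 3 (0.094). With the lysate as a block, 1386872_at was called at FD22 as well (-0.31, adjusted p = 0.048). The FD19 values were -0.64 (0.0047) and -0.69 (0.032) without FD19 replicate 1.

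Among the remaining genes only 1 probe set was called in any ratio. Grb10 1397211_at had log2 ratios of -0.75, -0.71 and -0.81 (SE 0.28 each, adjusted p = 0.060, 0.090 and 0.049), and with the lysate as a block it was called at all 3 stages (adjusted p = 0.00043, 0.00091 and 0.00028). Among the other 12 alternatives its P1 call held in 3. The brighter Grb10 1371517_at had ratios of 0.784 to 0.863 at FD19, 0.932 to 1.292 at FD22 and 0.853 to 1.149 at P1, so that the probe sets of this gene read different ratios. Mest lay close to 1, at 0.825 to 1.193 over the 9 lysates, and Cdkn1c at 0.712 to 1.108. Dlk1 lay above 1 in 8 of 9 lysates, between 0.773 and 1.577, with log2 ratios of 0.24, 0.18 and 0.40 (SE 0.36 each), none called.

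**Figure D4:**
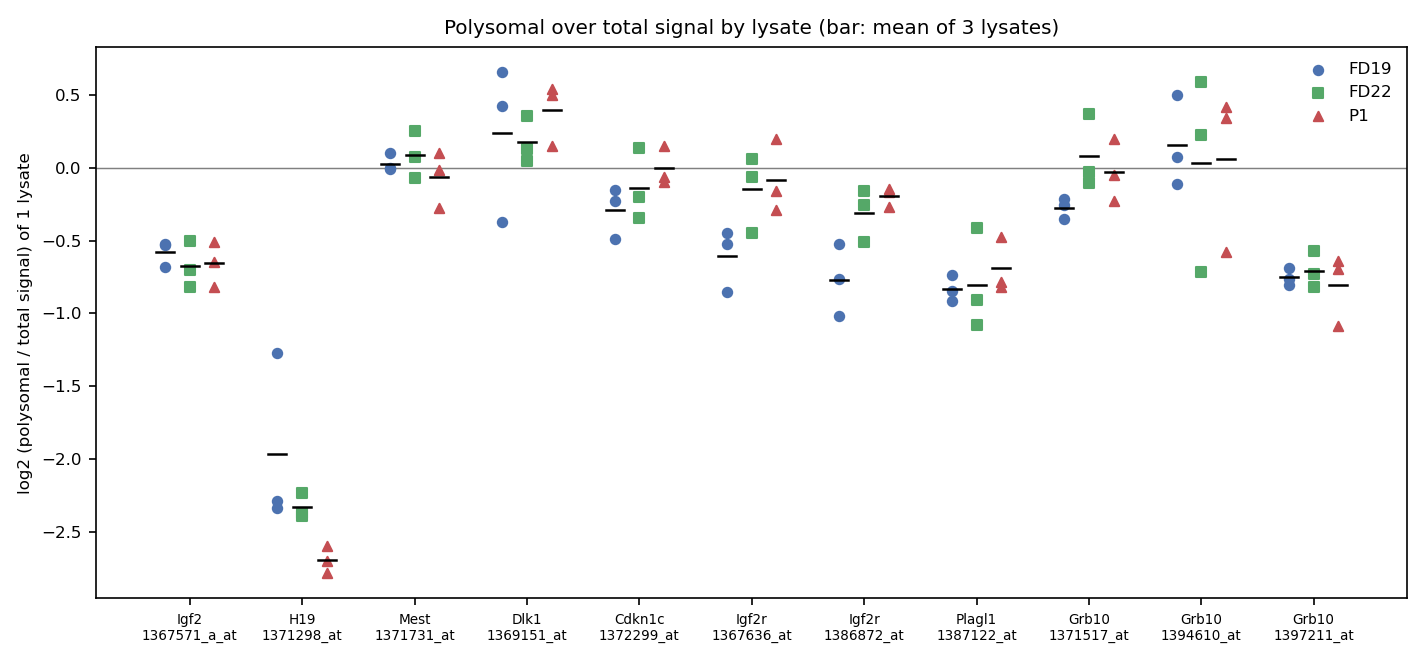
Log2 of polysomal over total signal of each lysate (points, by stage) for 11 probe sets, with a bar at the mean of 3 lysates and a line at 0 (equal signal). H19 lies lowest, with its FD19 replicate 1 at -1.27 apart from the others, and the Igf2r points are lower at FD19 than later.

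Whether the ratio itself changed between stages was tested as a difference of differences, and 0 of 11 probe sets passed with limma in any of the 3 comparisons. Of all probe sets, 0% passed between FD19 and FD22, 0.0138% between FD22 and P1 and 0.115% between FD19 and P1. At an unadjusted p under 0.05 there were 2, 0 and 2 of 11 members, against 3.6%, 4.35% and 9.98% of all probe sets. The largest changes were those of Igf2r 1386872_at, at 0.57 ± 0.16 from FD19 to P1 (adjusted p = 0.19, and 0.083 with the lysate as a block), and of H19, at -0.73 ± 0.34 (0.49, and 0.13). Without FD19 replicate 1 the H19 change was -0.38 (0.80). The 95% interval of the Igf2 change from FD19 to P1 ran from -0.58 to 0.42.

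The gene whose signal followed that of Igf2 most closely over the 18 arrays was Nutf2, a nuclear import factor (Pearson r = 0.94), then Cdk12, Iqgap3, Aspm and Cdca4 (each 0.93). The arrays come from 9 lysates and share stage and fraction, so r is a description. Among members H19 had r = 0.82 (rank 170 of 11589 genes), Grb10 0.79, Cdkn1c 0.76, Plagl1 0.69, Igf2r 0.56, Mest 0.50 and Dlk1 -0.59. Over the 9 total RNA arrays alone H19 had r = 0.99. Aspm, a mitotic spindle gene, fell in total RNA before birth by 1.50 ± 0.17 (limma, adjusted p = 1.1e-05), Nutf2 by 0.88 ± 0.24 (0.014) and Iqgap3 by 0.87 ± 0.27 (0.037). Cdk12 and Cdca4 were not called (-0.40 ± 0.14 and -0.31 ± 0.16, adjusted p = 0.061 and 0.20). These genes were picked for following Igf2, so their falls are no separate result. The cell cycle sums given above were lower at FD22 than at FD19, and a link with Igf2 was not tested.

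Other imprinted genes were counted for comparison. Of 58 others listed, 47 were on the array and 40 passed the filter. In total RNA 4 fell and 5 rose before birth (10% and 12.5%, against 7.82% and 8.42% of all probe sets), 2 fell and 0 rose across birth (5.0% and 0%, against 1.76% and 2.21%), and 7 fell and 5 rose from FD19 to P1 (17.5% and 12.5%, against 13.7% and 12.4%). In polysomal RNA the numbers were 3 and 3, 2 and 3, and 4 and 5, against 7.7% and 8.22%, 4.55% and 3.79%, and 15.8% and 13.1% of all probe sets. With 40 genes a share moves much with each call, and nothing is read from these shares about imprinted genes as a class. The medians of the 40 in total RNA were -0.03, -0.07 and -0.09, beside 0.01, -0.05 and -0.03 for all probe sets. The count from FD19 to P1 in total RNA, without FD19 replicate 1, was 5 lower and 2 higher, that before birth 2 lower and 4 higher, and that before birth in polysomal RNA 3 lower and 1 higher. With only the arrays numbered 2 and 3 the total RNA count from FD19 to P1 was 4 and 2. Without FD22 replicate 2 none of the 40 was called across birth in total RNA.

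Among these 40 genes the largest falls in total RNA from FD19 to P1 were those of Ddc, the aromatic amino acid decarboxylase gene beside Grb10 in the mouse imprinted cluster, and Ndn (necdin), a growth suppressor. Ddc read 380.0 to 386 in FD19 total RNA, 149 to 193.5 at FD22 and 89.7 to 118 at P1, and fell by 1.86 ± 0.15 (adjusted p = 1.0e-07). Ndn read 539.6 to 621.5, 314 to 528 and 201 to 229, and fell by 1.42 ± 0.19 (2.0e-05). Peg12 fell by 0.79 ± 0.17 (0.0017).

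Slc22a3, an organic cation transporter gene of the Igf2r cluster, is among the genes called higher, but it was above the filter in 4 P1 arrays and in no other, so it was kept only through the stage where it was high. It read 3.8 to 12 at FD19 in total RNA, a range that the unused Igf2 probe sets shared, and 37.3 to 51.6 at P1, and no fold is given. Kcnq1, a potassium channel gene that lies between Igf2 and Cdkn1c, rose by 0.90 ± 0.27 (0.016), and Atp10a by 0.96 ± 0.29 (0.018). Both were also higher in polysomal RNA at P1, by 1.04 and 1.11. Without FD19 replicate 1 the count of the 40 genes in total RNA was 5 lower and 2 higher. Single calls named here may therefore rest on that lysate, and which ones ended is not given.

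**Figure D5:**
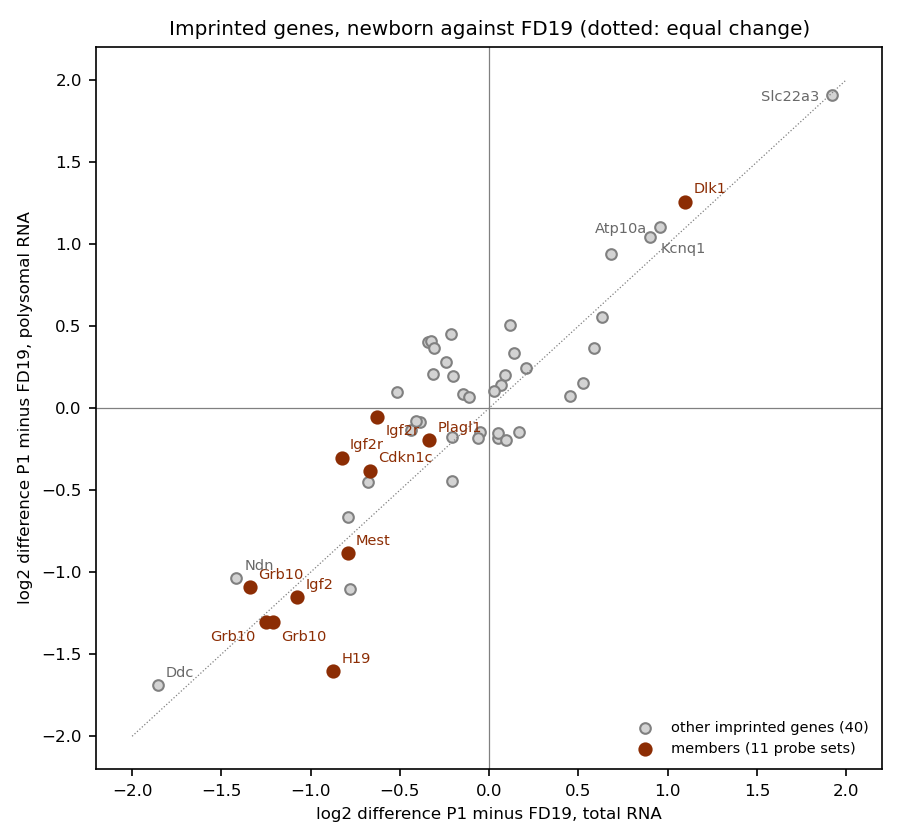
Log2 difference of P1 against FD19 in total RNA (x axis) and polysomal RNA (y axis) for 11 probe sets of the members (dark) and 40 other imprinted genes (grey), with a dotted line at equal change. Most member probe sets lie in the lower left with Ddc and Ndn, and Dlk1 lies in the upper right with Atp10a, Kcnq1 and Slc22a3, whose FD19 signals were below the filter.

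The ratio of the 40 was called lower for 7 and higher for 5 at FD19. It was called lower for 4 and higher for 5 at FD22, and lower for 0 and higher for 5 at P1. In percent of the 40 these were 17.5 and 12.5, 10 and 12.5, and 0 and 12.5, against 10.9 and 9.97, 8.6 and 6.76, and 10.4 and 8.12 percent of all probe sets. Without FD19 replicate 1 the FD19 count was 2 and 2, and without FD22 replicate 2 the FD22 count was 2 and 3. Qpct, Nap1l4 and Peg12 were higher on polysomes at all 3 stages, with mean log2 ratios of 0.88, 0.82 and 0.70. The ratio changed between stages for 0 of 40, with limma, and for 1, 0 and 1 of 40 at an unadjusted p under 0.05 (FD19 to FD22, FD22 to P1 and FD19 to P1).

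Genes of the IGF system and of RNA-binding and chromatin proteins known to act on Igf2 were also followed, as 16 listed genes of which 15 were on the array and 13 passed the filter. In total RNA 3 fell and 1 rose before birth (23.1% and 7.69%, against 7.82% and 8.42% of all probe sets). Across birth 0 fell and 1 rose (0% and 7.69%, against 1.76% and 2.21%), and from FD19 to P1 3 fell and 3 rose (23.1% each, against 13.7% and 12.4%). In polysomal RNA the numbers were 2 and 0, 0 and 3, and 4 and 3, against 7.7% and 8.22%, 4.55% and 3.79%, and 15.8% and 13.1%. The 3 polysomal rises across birth were 1 without FD22 replicate 2, and with 13 genes nothing is read from these shares. The medians of the 13 in total RNA were -0.23, 0.11 and -0.18. The mRNA-binding protein genes Igf2bp1 and Igf2bp3, known for binding Igf2 transcripts in the fetus, fell from FD19 to P1 by 1.22 ± 0.25 (adjusted p = 0.0012) and by 0.83 ± 0.15 (0.00036). Igf2bp1 read 194.5 to 245 in FD19 total RNA and 80.9 to 113 at P1, without overlap.

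Of 5 IGF-binding protein genes measured, Igfbp2 fell from FD19 to P1, Igfbp3 and Igfbp6 rose, and Igfbp4 and Igfbp5 were not called in total RNA (-0.20 ± 0.27 and -0.36 ± 0.15, adjusted p = 0.65 and 0.092). Igfbp2 read 948 to 1028 in FD19 total RNA, 385 to 592.5 at FD22 and 373 to 462 at P1, and fell by 1.22 ± 0.18 (adjusted p = 3.6e-05). Igfbp6, whose protein prefers IGF2 over IGF1, read 84.1 to 112, 152 to 202 and 232 to 237, and rose by 1.23 ± 0.15 (6.3e-06). Igfbp3 rose by 0.74 ± 0.24 (0.030) in total RNA and by 1.24 ± 0.24 in polysomal RNA (0.00074), and Irs2, an insulin receptor substrate, rose by 0.51 ± 0.14 (0.012). Igfbp6 was also higher on polysomes at FD19 (0.81 ± 0.15, adjusted p = 0.0010) and at P1 (0.60 ± 0.15, 0.0093). Without FD19 replicate 1 the count of total RNA from FD19 to P1 was 3 lower and 2 higher, and which of the total RNA rises ended is not given. The ratio changed for 0 of 13 between stages, with limma, and for 0, 0 and 1 of 13 at an unadjusted p under 0.05.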

How the data were processed

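Total and polysomal RNA of 9 lysates were hybridised to 18 arrays in 6 groups of 3. The deposited values are linear intensities per probe set, made by the authors with GCOS 1.4 per the submitters' processing notes; the signal algorithm is not given in the sources used here. They were found to share a 2% trimmed mean of 150.03 to 150.04, with array medians of 51.6 to 73.5, and no column was left unused (0). The number of arrays limits the precision, and p-values rest on the spread between arrays of a group, each from its own litter. The main fit has no lysate term and takes the 18 arrays as independent. Its ratio tests therefore do not measure the spread of ratios within lysates.

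Of 31099 probe sets, 57 controls were left out and 21675 were kept (above 40.8, the 40th percentile, in at least 3 arrays). Values were log2(signal + 5.5), the constant being the 10th percentile, and went into a linear model of 6 group means in R 4.3.3 (limma 3.58.1, moderated variances with an intensity trend, 12 residual degrees of freedom), with Benjamini-Hochberg adjustment over all kept probe sets. SE is limma's. A fold change on this scale is understated for dim probe sets. The fit was tested on simulated data. Figures were drawn with matplotlib 3.10.9.

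The members and gene lists were chosen with earlier results of these data known. All probe sets of the members are named. From the lists of other imprinted genes and IGF2 partners, the 6 largest called changes in total RNA from FD19 to P1 and up to 4 genes with the same called ratio at all 3 stages are named, each gene by its brightest kept probe set, with the 5 genes nearest to Igf2 by Pearson r. Marker lists of cell types were used as summed signals and counts of calls. Igfbp4, Igfbp5 and the members of small counts are named after their values were seen. The step difference and the counts without doubted lysates were added after seeing the data.

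Total and polysomal arrays of equal number share a lysate per the labels, and their deviations from group means correlated in all 9 cases (r from 0.186 to 0.488), so a fit with the lysate as a block (6 residual degrees of freedom) stands beside a result where it changes the call. Across stages equal numbers deviated together in all 3 pairs between FD19 and FD22 in the polysomal arrays (0.226 to 0.498) and between FD19 and P1 in the total RNA arrays (0.119 to 0.313), where the block changed no member's call. Between FD22 and P1, r was 0.092 to 0.42 in the total RNA arrays and 0.094 to 0.388 in the polysomal arrays, highest for those numbered 1. Gene names came from the platform annotation, and sequences from RefSeq tables of GRCr8.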

Additional observations from a re-analysis of the deposited data

How the results depend on the processing

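Alternatives changed the constant, the filter, the scaling, the variance trend, the arrays in the fit or the lysates. Of 2013 single values of the members, 1821 kept call and direction, 74 lost the call, 22 gained it, 96 turned sign without being called and 0 turned with a call. Counts of called members moved by over 1.5 times as follows, and the cause was not tested. Across birth in total RNA (1 as reported), 2 were called with the filter at the 60th percentile, 4 under quantile normalization, 3 with the replicate block and 0 with only the arrays numbered 2 and 3. Across birth in polysomal RNA (2), 1 was called under median centring, 1 with only the groups compared and 1 with only the arrays numbered 2 and 3. For the ratio at FD19 (5), 3 were called under median centring and 8 with only the groups compared, and at P1 (4), 2 under median centring. For the ratio at FD22 (3), 5 were called with the replicate block, where equal numbers share a lysate. Across birth the labels give the arrays only a shared number and name no pairing. The arrays numbered 1 still deviated together there (r = 0.42 in total RNA), and the reason was not tested.

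Leaving out a lysate gave 3 to 5 calls before birth in total RNA (6 as reported), 1 to 2 across birth (1) and 8 to 10 from FD19 to P1 (10). In polysomal RNA the ranges were 3 to 6 (5), 1 to 2 (2) and 5 to 8 (8), for the ratio 3 to 5 at FD19 (5), 2 to 3 at FD22 (3) and 2 to 3 at P1 (4), and for ratio changes 0 to 0 (0). Counts moved by over 1.5 times without FD19 replicate 2 (polysomal before birth 3, polysomal from FD19 to P1 5, ratio at FD19 3), FD19 replicate 3 (total before birth 3, polysomal before birth 3, ratio at FD19 3), P1 replicate 2 (polysomal across birth 1, ratio at P1 2) and P1 replicate 3 (ratio at P1 2). The total count across birth was 2 without FD22 replicate 3. The ratio count at FD22 was 2 without FD22 replicate 2 or 3, in each case through Igf2. Median centring moved the share of all calls that were higher from 51.8% to 40.5% before birth in total RNA, from 55.6% to 74.9% across birth, and from 45.4% to 60.1% across birth in polysomal RNA. The difference between the steps was called for Igf2 in total RNA with the replicate block (adjusted p = 0.0052, limma) and not as reported (0.066). With 3 lysates a stage, the 95% intervals given bound what could be seen.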
